A study of Mus musculus with 5 samples.

Results

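The 10 genes described here, Atf4, Atf3, Ddit3, Trib3, Chac1, Asns, Phgdh, Psat1, Shmt2 and Sesn2, belong to the ATF4 and amino acid stress response. They were picked by symbol from a table of 53927 genes, and each symbol matched 1 row. RNA was sequenced from primary nephron progenitor cells, the kidney precursors that form nephrons, isolated from C57BL/6J mouse embryos and collected after 1 passage in culture. The KO group (3 libraries) came from Dis3l2-/- embryos and the WT group (2 libraries) from Dis3l2+/+ embryos. Dis3l2 encodes an exoribonuclease that degrades uridylated RNA from the 3′ end. The embryos' age, the deleted part of the gene and how many embryos stand behind a library were not given in the sources used here. All p-values therefore measure only how these libraries vary, which may be technical. The comparison asks whether loss of Dis3l2 goes with a different level of these transcripts.

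The integrated stress response starts when kinases that sense amino acid shortage, misfolded protein in the endoplasmic reticulum, double-stranded RNA or lack of heme phosphorylate the translation factor eIF2. Most translation then slows, while upstream reading frames in the Atf4 message let more ATF4 protein be made, so the Atf4 RNA level alone is no measure of the protein. ATF4 pairs with other basic leucine zipper proteins at C/EBP-ATF response elements and raises genes for amino acid synthesis, uptake and stress feedback.

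The promoters are shown because that element can be looked for in their letters. The core TGATGNAA, or TTNCATCA on the other strand, was searched in the 250 bases before each RefSeq transcription start (GRCm38.p6). All 10 genes were matched, with 11 windows because Psat1 has more than 1 start. The core was found in 3 of the 11 windows, those of Asns, Chac1 and Atf3, against 3.45% of 32851 mouse promoter windows of the same length. It began 23 bases before the start in Asns, 193 in Chac1 and 110 in Atf3. Capitals mark the core, the Phgdh window is given for comparison because its values separated the genotypes, and a match of letters shows neither binding nor its absence.
Asns, chr6:7693210-7693459, minus strand: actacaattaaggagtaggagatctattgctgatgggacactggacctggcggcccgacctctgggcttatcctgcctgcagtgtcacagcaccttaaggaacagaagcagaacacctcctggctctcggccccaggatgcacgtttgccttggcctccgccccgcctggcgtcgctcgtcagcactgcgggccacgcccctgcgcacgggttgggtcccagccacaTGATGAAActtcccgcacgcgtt
Chac1, chr2:119350992-119351241, plus strand: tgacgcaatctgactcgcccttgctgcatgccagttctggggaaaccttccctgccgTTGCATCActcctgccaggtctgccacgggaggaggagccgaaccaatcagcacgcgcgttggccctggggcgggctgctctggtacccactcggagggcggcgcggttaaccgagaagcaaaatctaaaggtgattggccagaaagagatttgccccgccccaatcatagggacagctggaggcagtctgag
Atf3, chr1:191183334-191183583, minus strand: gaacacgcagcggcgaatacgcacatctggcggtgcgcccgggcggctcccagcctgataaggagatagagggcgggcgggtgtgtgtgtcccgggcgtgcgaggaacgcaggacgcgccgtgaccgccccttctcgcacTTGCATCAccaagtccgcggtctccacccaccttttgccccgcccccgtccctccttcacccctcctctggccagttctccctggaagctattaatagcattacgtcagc
Phgdh, chr3:98339970-98340219, minus strand: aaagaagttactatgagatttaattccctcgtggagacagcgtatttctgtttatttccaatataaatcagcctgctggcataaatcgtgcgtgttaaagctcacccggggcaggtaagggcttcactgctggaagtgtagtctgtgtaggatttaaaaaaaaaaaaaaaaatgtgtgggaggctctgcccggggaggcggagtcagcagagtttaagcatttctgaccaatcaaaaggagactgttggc

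Levels are CPM of an effective library size, as deposited. The low values lie on steps of 1 read, which put the depth at 19.6 to 49.2 M assigned reads in the KO libraries and 22.3 to 28.3 M in the WT libraries. Dis3l2, which checks the labels, averaged 5.38 ± 0.98 CPM in KO and 14.1 ± 2.73 CPM in WT (SD, n = 3 and 2), with no overlap. Even this gene did not pass the limma test used below (log2 fold change -1.24, adjusted p = 0.9545), while the authors' deposited table gives it a log2 fold change of -1.38 and an FDR of 0.00855, so a gene that misses that threshold here may still differ. KO replicate 1 and KO replicate 3 lay at opposite ends of the first principal component (-35.95 and 24.6), which held 44.4% of the variance. Xist and Ddx3y marked WT replicate 1 and KO replicate 3 as XY and the other 3 libraries as XX. Mitochondrial ribosomal RNA took 31.6% to 32.9% of the summed values in KO and 38.9% to 40.7% in WT. Of 12 nephron progenitor markers, 11 reached 0.5 CPM in at least 2 libraries, and Six2 stood at 18.6 to 31.9 CPM in KO and at 18.97 and 18.8 CPM in WT. Cited1, from the same list, varied more between libraries of 1 genotype. It had 17.05, 4.74 and 2.73 CPM in KO replicates 1, 2 and 3, and 15.16 and 1.4 CPM in WT replicates 1 and 2. Pax2, another defining progenitor gene, was at most 0.66 CPM in KO and at most 0.18 CPM in WT, and Foxd1, which defines renal stroma, stayed between 0.13 and 0.25 CPM in all 5 libraries. Foxd1 does not stand for the whole renal stroma list, which summed to 606 to 1656 CPM in KO and 477 to 1247 CPM in WT. That sum was above the one of the nephron progenitor markers in KO replicates 2 and 3 and in WT replicate 2. Summed markers of ureteric bud, podocytes, endothelium, leukocytes and red cells reached at most 36.8 CPM a list in KO and 19.9 CPM in WT.

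None of the 10 genes differed between KO and WT past the threshold (limma, Benjamini-Hochberg adjusted p under 0.05 over 14884 genes). All 10 had passed the filter on low values, which asked for 0.5 CPM in at least 2 libraries. Over all genes tested, 1 gene was called in either direction, or 0.00672%. At an unadjusted p under 0.05 there was 1 of the 10 genes, Phgdh, which was higher in KO, against 413 of all genes (2.77%), with 1.5% higher and 1.27% lower in KO. That count of the 10 genes was 5 without WT replicate 1 (360 of 14718 genes overall) and 2 without KO replicate 1 (767 of 14684). The submitters' processing notes name edgeR, and in the authors' deposited table none of the 10 had an FDR under 0.05, against 17 genes, or 0.114% of those tested here and 0.0315% of all listed. Fitted log2 fold changes, KO over WT throughout, were above 0 for 4 of the 10 genes and below 0 for 6 (against 47.1% of all genes tested), with a median of -0.10, beside 0.01 over all genes. In bulk RNA, fewer cells of a type and less RNA per cell cannot be told apart.

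Atf4 (ENSMUSG00000042406.7, chromosome 15, 80255184 to 80257541, plus strand, GRCm38) encodes the transcription factor itself. It had 104, 139 and 111 CPM in KO replicates 1, 2 and 3, against 112 and 130.1 CPM in WT replicates 1 and 2. The groups overlapped fully, with both the highest and the lowest library in KO. Atf4 averaged 118 ± 18.5 CPM in KO and 121 ± 13.1 CPM in WT (SD, n = 3 and 2). The fitted log2 fold change, -0.04 with an SE of 0.17, had a 95% interval from -0.44 to 0.35 (adjusted p = 1, limma). It was the steadiest of the 10, with 1.33 times between the highest and the lowest library.

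Ddit3 (ENSMUSG00000025408.15, chromosome 10, 127290774 to 127296288, plus strand) encodes CHOP, a factor that ATF4 induces and that promotes cell death under lasting stress. It had 7.80, 12.3 and 9.59 CPM in KO, against 6.72 and 11.4 CPM in WT. The KO libraries spanned nearly the same range as the WT libraries, and the log2 fold change was 0.13 with a 95% interval from -0.51 to 0.77. Its exons share 68 bases with Mars, a tRNA synthetase gene on the other strand, which reached 49.2 CPM. The library kit keeps strand, per the labels, but whether the counting used it was not given in the sources used here. Any read there may belong to either gene.

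Atf3 (ENSMUSG00000026628.13, chromosome 1, 191170296 to 191218039, minus strand) encodes a stress-induced factor that is also an immediate early gene. It had 0.92, 2.68 and 2.92 CPM in KO, against 1.16 and 1.86 CPM in WT. KO replicate 1 lay below both WT libraries and KO replicates 2 and 3 lay above both. These values rest on 43, 86 and 62 reads in KO and on 25 and 53 reads in WT. The log2 fold change was 0.28, with a 95% interval from -0.51 to 1.08.

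Trib3 (ENSMUSG00000032715.9, chromosome 2, 152337422 to 152344032, minus strand) encodes a pseudokinase that restrains ATF4 and CHOP in negative feedback. It had 0.26, 3.09 and 0.94 CPM in KO, against 0.74 and 5.30 CPM in WT. This was the widest spread of the 10 genes: the highest library, WT replicate 2, stood 20.4 times above the lowest, KO replicate 1. The 2 WT libraries alone differed 7.16 times, and the KO libraries 11.9 times. The fitted log2 fold change of -0.62 (SE 0.64) had a 95% interval from -2.15 to 0.91. The counts were 12, 99 and 20 reads in KO and 16 and 151 reads in WT, so the gap between the WT libraries is far larger than counting error, with exact Poisson intervals of 0.42 to 1.20 CPM and 4.49 to 6.22 CPM. Intervals of this kind cover counting error only.

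Chac1 (ENSMUSG00000027313.3, chromosome 2, 119351229 to 119354381, plus strand) encodes an enzyme that breaks down glutathione. It was the lowest of the 10, with 0.15, 0.50 and 0.52 CPM in KO, against 0.37 and 1.26 CPM in WT. WT replicate 2 stood above every other library, and WT replicate 1 lay within the KO range. Only 7, 16 and 11 reads stand behind the KO values and 8 and 36 behind the WT values. The log2 fold change was -0.35 with a 95% interval from -0.94 to 0.24, on a scale where the added 1 CPM exceeds most of these levels and so understates the difference. The authors' deposited table lists log2 fold changes of -1.13 for Chac1 and -1.08 for Trib3, both with an FDR of 1.

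Asns (ENSMUSG00000029752.12, chromosome 6, 7675169 to 7693254, minus strand) encodes asparagine synthetase, which makes asparagine from aspartate. It had 11.7, 23.6 and 19.8 CPM in KO, against 17.2 and 35.5 CPM in WT. The KO libraries lay on both sides of WT replicate 1 and all below WT replicate 2. Asns averaged 18.4 ± 6.08 CPM in KO and 26.3 ± 12.9 CPM in WT (SD, n = 3 and 2). The fitted log2 fold change of -0.47 (SE 0.37) had a 95% interval from -1.35 to 0.42 (adjusted p = 1, limma).

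Sesn2 (ENSMUSG00000028893.8, chromosome 4, 132492032 to 132510501, minus strand) encodes a leucine sensor that restrains the growth kinase mTORC1 and is raised by both ATF4 and p53. It had 9.31, 11.9 and 8.79 CPM in KO, against 7.98 and 16.3 CPM in WT. Here the WT libraries were the lowest and the highest of all, with the KO libraries between them. The log2 fold change was -0.19, with a 95% interval from -0.90 to 0.51.

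Phgdh, Psat1 and Shmt2 encode enzymes of serine and glycine synthesis. Phgdh (ENSMUSG00000053398.11, chromosome 3, 98313170 to 98339990, minus strand) carries out the first step from glycolysis into serine. It had 66.8, 109.7 and 89.1 CPM in KO, against 46.2 and 51.6 CPM in WT. The 3 KO values all exceeded both WT values, which held for 1 of the 10 genes and for 7.85% of all genes tested. The reverse, 3 KO values under both WT values, held for none of the 10 and for 6.98% of all genes. Phgdh averaged 88.5 ± 21.4 CPM in KO and 48.9 ± 3.80 CPM in WT (SD, n = 3 and 2), a ratio of 1.81. The fitted log2 fold change of 0.82 (SE 0.21) had a 95% interval from 0.31 to 1.32, but it did not pass over all genes (unadjusted p = 0.0067, adjusted p = 1, limma). The authors' deposited table gives Phgdh a log2 fold change of 0.86 and an FDR of 0.631.

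The enzymes after Phgdh did not share its pattern. Psat1 (ENSMUSG00000024640.9, chromosome 19, 15904678 to 15947337, minus strand), the aminotransferase of the second step, had 48.1, 59.5 and 61.9 CPM in KO, against 52.1 and 76.2 CPM in WT. Its groups overlapped, and the log2 fold change was -0.16 with a 95% interval from -0.64 to 0.31. Shmt2 (ENSMUSG00000025403.5, chromosome 10, 127517123 to 127522444, minus strand), which turns serine into glycine in mitochondria, had 28.9, 32.4 and 17.5 CPM in KO, against 23.4 and 27.6 CPM in WT. The WT libraries lay inside the KO range, and the log2 fold change was 0.00 with a 95% interval from -0.62 to 0.63, its sign turning below 0 with median-of-ratios scaling (-0.017). For 6 of the 10 genes (Atf4, Ddit3, Chac1, Psat1, Shmt2 and Sesn2) the interval stayed within 1 on the log2(CPM + 1) scale in both directions, which for Chac1 is the least informative because of its low level.

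**Figure D1:**
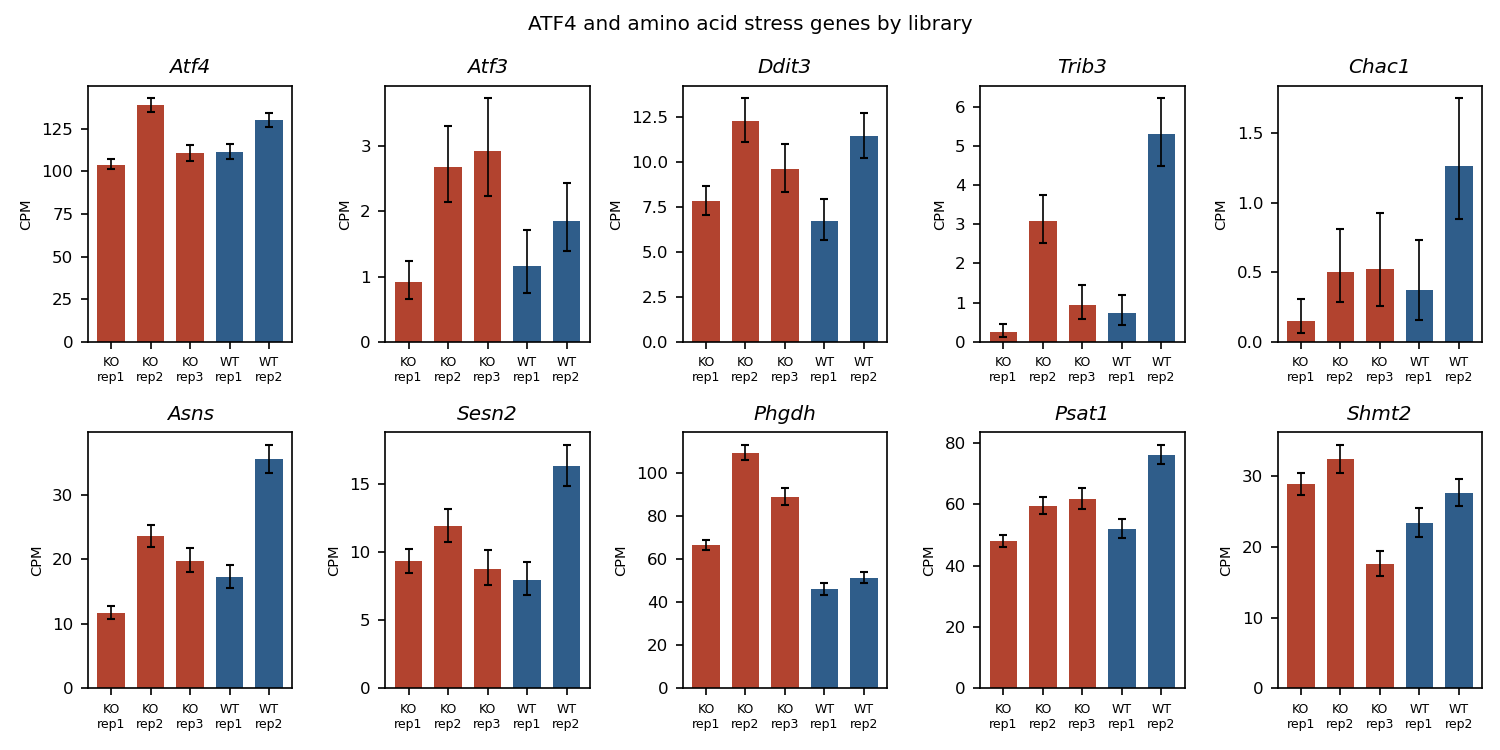
CPM of each gene in the 3 KO libraries (red) and the 2 WT libraries (blue), 1 panel per gene with its own linear axis from 0. Error bars are exact Poisson 95% intervals of the reads behind each value. Phgdh is the 1 gene with every KO bar above both WT bars, and WT replicate 2 is the highest bar for Trib3, Chac1, Asns, Sesn2 and Psat1.

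Levels of different genes were compared per kb of exon (exon length from GENCODE M21). In KO the order ran from Atf4 (49.9 ± 7.83 CPM per kb) through Phgdh (35.6 ± 8.62), Psat1 (13.3 ± 1.74), Shmt2 (8.45 ± 2.49), Asns (6.72 ± 2.22), Ddit3 (5.77 ± 1.31), Sesn2 (2.88 ± 0.48), Atf3 (1.01 ± 0.51) and Trib3 (0.67 ± 0.70) to Chac1 (0.24 ± 0.13). In WT the first were Atf4 (51.3 ± 5.57 CPM per kb), Phgdh (19.7 ± 1.53) and Psat1 (15.1 ± 4.01), and Asns (9.63 ± 4.73) stood before Shmt2 (8.20 ± 0.97) and Trib3 (1.42 ± 1.52) before Atf3 (0.70 ± 0.23). Among neighbours in KO, the ranges of Atf4 and Phgdh just met, and those of Shmt2, Asns and Ddit3 overlapped, as did those of Atf3, Trib3 and Chac1. In WT Atf4 and Phgdh were apart from each other and from the rest, and overlap began with Psat1 and Asns. Atf4, Phgdh and Psat1 thus had the most RNA per kb in both genotypes, and Atf3, Trib3 and Chac1 the least.

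Most of the 10 genes varied more between libraries of 1 genotype than between the genotypes. KO replicate 2 had more than KO replicate 1 for 10 of 10 genes, and WT replicate 2 more than WT replicate 1 for 10 of 10. Over all genes tested the shares were 47.9% and 44.7%, and 30.1% of genes had both orders. The median gap of the 10 genes was 0.50 on the log2(CPM + 1) scale between these KO libraries and 0.61 between the WT libraries, against -0.02 and -0.03 over all genes. WT replicate 2 was the highest library for 5 genes and KO replicate 2 for 4, and KO replicate 1 was the lowest for 6. For 9 of the 10 genes the gap between the WT libraries was larger than the difference of the KO and WT means, the exception being Phgdh. The range of the KO libraries was also larger than that difference for 9 of the 10, Phgdh among them, the exception being Chac1. The share of all genes was not worked out for either count, so both describe the 10 genes only.

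**Figure D2:**
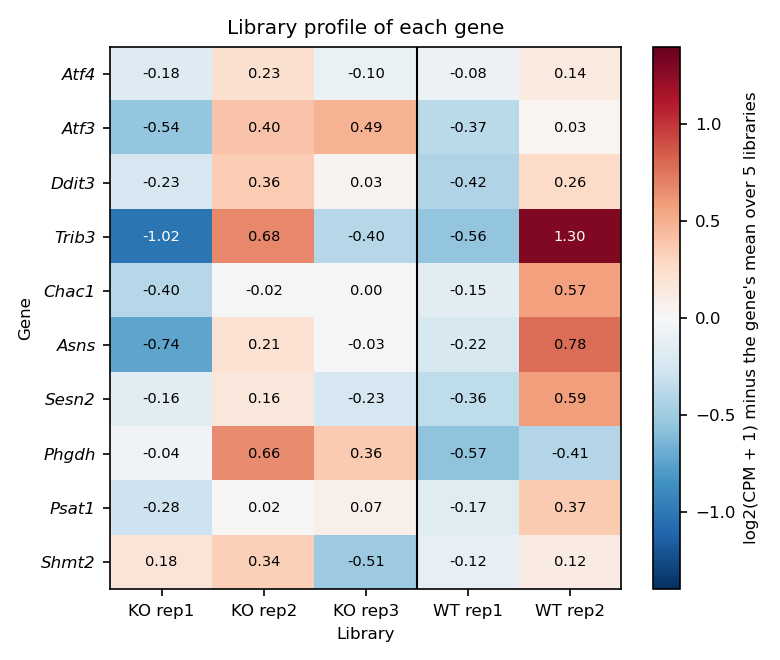
Each cell is a gene's log2(CPM + 1) in 1 library minus its mean over the 5 libraries, with KO left of the line and WT right of it. Trib3 is at -1.02 in KO replicate 1 and at 1.30 in WT replicate 2, and Phgdh is below 0 in both WT libraries (-0.57 and -0.41).

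Other measures moved with this order. The summed level of 7 renal stroma markers, 6 of them at 0.5 CPM or more in at least 2 libraries and most of the sum from Col1a1 and Acta2, was 606, 1656 and 1446 CPM in KO and 477 and 1247 CPM in WT, lowest in KO replicate 1 and WT replicate 1. Pdgfrb followed that order too, while the stroma markers Meis1 (86.8, 39.7 and 38.6 CPM in KO, 51.1 and 35.8 CPM in WT) and Tcf21 ran against it. The summed level of the 12 nephron progenitor markers ran the other way, with 918, 751 and 841 CPM in KO and 940.3 and 733 CPM in WT. No marker of either list was at 0 in every library. The part of either in the levels of the 10 genes was not tested.

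Leaving out WT replicate 2 turned every negative fold change. All 10 genes then had log2 fold changes above 0, with a median of 0.20 in place of -0.10. Over all genes tested in that setting, 7465 of 14642 were above 0, with a median of 0.0055. WT replicate 2 exceeded WT replicate 1 for all 10 genes, so leaving it out could only raise each fold change. That rise restates the order of the WT libraries and is not a separate result. Trib3 went to 0.31, Asns to 0.036, Chac1 to 0.0094, Psat1 to 0.11, Sesn2 to 0.28 and Atf4 to 0.066. Without WT replicate 1 the median was -0.32 and 8 of the 10 were below 0. Phgdh kept its sign without each library in turn, with log2 fold changes from 0.65 to 1.00.

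**Figure D3:**
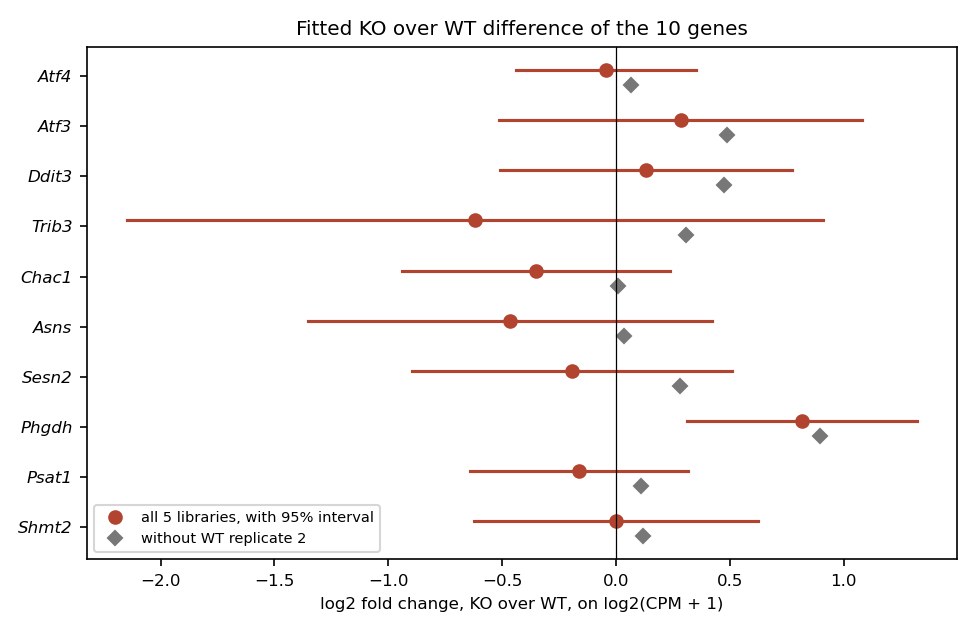
Log2 fold change of KO over WT for each gene from limma with all 5 libraries (red points with 95% intervals) and without WT replicate 2 (grey diamonds). The interval of Phgdh, from 0.31 to 1.32, is the 1 interval that leaves out 0, and all 10 diamonds lie above 0.

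Within XX libraries (2 KO against 1 WT) and XY libraries (1 KO against 1 WT), the differences of log2(CPM + 1) often had opposite signs. They were below 0 for 8 of the 10 genes within XX, with a median of -0.35, and for 2 of the 10 within XY, with a median of 0.17. The shares over all genes were not worked out. Each difference rests on 1 WT library, and WT replicate 2 (XX) exceeded WT replicate 1 (XY) for all 10 genes. Asns had a difference of -1.05 within XX and 0.19 within XY, and Trib3 -1.47 and 0.16. Phgdh was higher in KO within both, by 0.72 and 0.93. In a limma fit with an interaction of genotype and sex, chosen after the data had been seen, no gene of the 14884 had an adjusted p under 0.05 and none of the 10 an unadjusted p under 0.05 (Psat1 had the smallest of the 10, 0.0709). With 1 library in 3 of its 4 cells the fit had 1 residual degree of freedom, so it could hardly call a difference and says little about whether the sexes differ. WT replicate 2 is the 1 WT library that is XX, so that library and sex cannot be told apart.

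The genes around ATF4 were described from 11 further lists with 132 measured genes in all. None of the 132 passed (limma), 6 had an unadjusted p under 0.05 (against 2.77% of all genes), and the fitted difference was below 0 for 82 and above 0 for 50. Without WT replicate 2 that balance turned, with 53 below and 76 above 0 among 129 measured genes and a median of 0.07 in place of -0.04. Of 14 genes for the eIF2 kinases, eIF2B and the eIF2 phosphatase, which start and end the response, 7 were on each side of 0 and the median was -0.0034, while 3 were below 0 without KO replicate 1. Eif2ak4, the kinase GCN2 that senses uncharged tRNA, had 24.5, 24.4 and 22.9 CPM in KO, against 28.6 and 27.7 CPM in WT (log2 fold change -0.22). Gcn1l1, its activating partner, had 116, 101.4 and 64.9 CPM in KO and 73.9 and 61.2 CPM in WT. The groups were apart for Eif2ak4, with KO lower, and overlapped for Gcn1l1. Of the 132 genes, all KO values lay above both WT values for 9 and below both for 11. Over all genes tested the shares were 7.85% and 6.98%. The genes named from these lists are those with the smallest p in each.

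Of 10 bZIP factors and partners, 8 had differences below 0 (median -0.11), and 5 without WT replicate 2 (median 0.02). Cebpb, a partner of ATF4, had 2.32, 4.80 and 2.63 CPM in KO, against 3.71 and 7.83 CPM in WT, again highest in WT replicate 2. Of 12 amino acid transporters 11 were below 0, with a median of -0.24, and without WT replicate 2 the median was -0.06 with 8 below 0. Slc7a11, the cystine importer, had 1.64, 3.65 and 3.86 CPM in KO, against 4.22 and 12.5 CPM in WT. The groups did not overlap, and the fitted log2 fold change was -1.10, SE 0.45 (unadjusted p = 0.0438, adjusted p = 1, limma). Slc7a5, which imports large neutral amino acids, had 11.5, 14.1 and 10.6 CPM in KO and 12.6 and 22.1 CPM in WT.

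The serine, glycine and one-carbon enzymes other than the 10 genes did not follow Phgdh: 9 of 10 were below 0, with a median of -0.21, and 5 of 10 without WT replicate 2, with a median of 0.01. Shmt1, the cytosolic counterpart of Shmt2, had 14.7, 11.6 and 13.9 CPM in KO, against 17.1 and 15.9 CPM in WT. Mthfd1, a folate enzyme, had 36.3, 34.2 and 28.6 CPM in KO, against 27.6 and 27.8 CPM in WT. Neither gene's groups overlapped, with Shmt1 lower and Mthfd1 higher in KO.

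Of 9 enzymes of proline, aspartate and other amino acids 7 were below 0 (median -0.02), or 4 without WT replicate 2 (median 0.02). Bcat1, a branched-chain aminotransferase, had 4.2, 4.52 and 3.72 CPM in KO, against 3.39 and 10.4 CPM in WT. Of 21 tRNA synthetase and tRNA export genes 13 were below 0 with a median of -0.04, or 10 without WT replicate 2 with a median of 0.035. Of 14 other ATF4 targets 8 were below 0 (median -0.05), or 4 of the 12 measured without WT replicate 2 (median 0.12). Gadd45a, a growth arrest gene, had 11.2, 12.4 and 9.03 CPM in KO and 14.8 and 15.1 CPM in WT (unadjusted p = 0.0473, adjusted p = 1, limma). Of 6 relatives of Sesn2, Trib3 and Chac1, 5 were below 0, and Sesn1 had 14.7, 17.5 and 16.8 CPM in KO, against 23.6 and 21.03 CPM in WT. The Sesn1 groups thus did not overlap while those of Sesn2 did, but Sesn1 was named for its small p.

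Other pathways that share members with this response were also set beside it. All 12 genes of the ER chaperone list, which belong to the unfolded protein response, had differences above 0, against 52.9% of all genes tested. Their median was 0.29, and for 5 of them the KO values all exceeded both WT values, against 7.85% of all genes. Creld2 had 16.8, 22.3 and 19.1 CPM in KO, against 11.3 and 13.3 CPM in WT (log2 fold change 0.61, unadjusted p = 0.0104, adjusted p = 1, limma), and none of the 12 passed. The 12 stayed above 0 without WT replicate 2 (median 0.36) and without KO replicate 1 (0.40). The smallest of the 12 differences, with all libraries, was 0.02. Leaving mitochondrial ribosomal RNA out of the totals moved the median of all genes to -0.10. Whether all 12 stay above 0 under that scaling was not tested. Of 15 immediate early genes, which can also raise Atf3, 8 were below 0 with a median of -0.04. Jun had 11.6, 19.6 and 11.7 CPM in KO, against 10.3 and 10.6 CPM in WT. Without WT replicate 2, 4 of the 14 measured immediate early genes were below 0 and the median was 0.28. Of 10 p53 targets 7 were below 0 with a median of -0.18, against 0.27 when WT replicate 2 was left out and 0.07 when KO replicate 1 was. The order of the replicates, with replicate 2 above replicate 1 in both KO and WT, held for 30.1% of all genes tested. It held for 12 of 14 other ATF4 targets, 11 of 12 ER chaperones and 9 of 10 p53 targets. The counts were 8 of 12 amino acid transporters, 6 of 9 proline, aspartate and other amino acid enzymes and 6 of 10 bZIP factors. They were 9 of 15 immediate early genes, 5 of 10 serine, glycine and one-carbon enzymes and 10 of 21 tRNA synthetase genes (47.6%). The lowest shares were in the eIF2 genes (4 of 14, or 28.6%) and the relatives of Sesn2, Trib3 and Chac1 (2 of 6, or 33.3%).

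**Figure D4:**
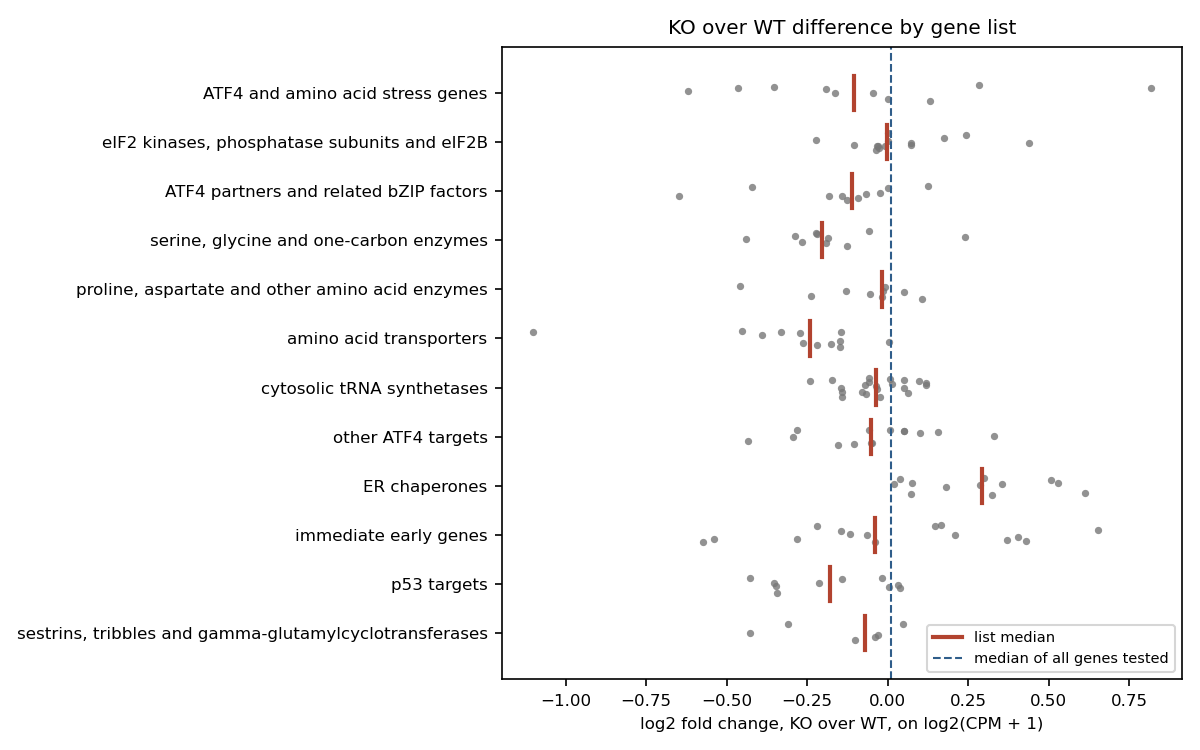
Each grey point is 1 measured gene's log2 fold change (KO over WT), by list, with the list median in red and the median of all genes tested as the dashed blue line. The ER chaperones are the 1 list with every point above 0, and the amino acid transporters have the lowest median (-0.24).

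Genes outside the response came close to the library profile averaged over the 10 genes. By root mean square difference of centred log2(CPM + 1) values over the 5 libraries, the closest of 9857 other genes with a mean of at least 5 CPM was Arsa, a lysosomal sulfatase gene, at 0.03. It had 18.4, 29.7 and 22.5 CPM in KO, against 18.1 and 31.3 CPM in WT. Next came Cbx6 (0.05), Fam57a (0.06), the p53 target Aen (0.06) and the collagen gene Col1a2 (0.07), and 462 genes lay within 0.2. The 10 genes themselves lay from 0.10 (Ddit3) to 0.58 (Trib3) away from their average. Phgdh (0.46), Shmt2 (0.35), Atf3 (0.30) and Asns (0.26) were also beyond 0.2, so the average is not a profile that all 10 shared.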

How the data were processed

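The authors' deposited table gives 1 signal value per gene and library, CPM scaled by an effective library size and kept to 2 decimals. Per the submitters' processing notes, HISAT2 2.1.0, featureCounts, edgeR 3.20.1 and mm10 were used. The annotation release and the treatment of strand and of multiple matches were not given in the sources used here. The deposited log2 fold change, likelihood ratio score, p-value and FDR are the authors' own and are quoted as such. The deposited values are normalized and are not counts, so a test for normalized values was used. It was limma 3.58.1 in R 4.3.3, with trend, on log2(CPM + 1). Genotype was the 1 term, and none of the 5 libraries was left out. The filter was 0.5 CPM or more in 2 or more libraries. P-values were 2-sided, with Benjamini-Hochberg adjustment. Read numbers were worked back from the CPM for the Poisson intervals, and no count model was fitted to them. The steps were tested on simulated counts with independent noise for each gene and library. Differences shared by many genes of a library, as seen here, were not simulated, so that run does not give the power for these data. Fold changes on this scale understate the change of low genes. Depth, 19.6 to 49.2 M reads, came from the steps of low values, of which 99.99% or more, among values up to 100 CPM, sat no more than 0.0055 CPM from a whole read. Sequences are from RefSeq (GRCm38.p6), and positions and exon lengths from GENCODE M21 (GRCm38), matched on the ID without its version. The 10 genes and all lists were chosen with earlier results of these data known. Named are the 10 genes, Dis3l2, up to 4 genes per list with the smallest p, and the 5 with the closest profile. Xist, Ddx3y, Mars, marker genes and collagen and actin genes are named as checks.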

Additional observations from a re-analysis of the deposited data

How the results depend on the processing

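None of the 10 genes passed under any of the 13 alternatives run, and Phgdh and Atf3 kept their sign in all of them, while Chac1 and Trib3 were not tested with a filter of 1 CPM in 3 libraries. The number of all genes called, 1 with all libraries, was 0 with a pseudocount of 5, with no filter, with median-of-ratios size factors, with a sex term and with totals without mitochondrial rRNA (added after seeing the data), and 0 to 8 without each library in turn. Totals without mitochondrial rRNA moved the median of all genes to -0.10 on the log2 scale, and that of the 10 genes to -0.24. Shmt2 turned to -0.017 with median-of-ratios size factors, -0.088 with a sex term and -0.13 without mitochondrial rRNA in the totals; the cause was not tested. Without each library in turn the median of the 10 genes ran from -0.32 to 0.20, Atf4 from -0.17 to 0.066, Ddit3 from -0.21 to 0.48, Trib3 from -1.55 to 0.31, Chac1 from -0.71 to 0.0094, Asns from -0.97 to 0.036, Psat1 from -0.43 to 0.11, Shmt2 from -0.17 to 0.26 and Sesn2 from -0.67 to 0.28. With a replicate block 390 genes were called, 339 higher and 51 lower, none of them among the 10. Of the 10, 5 had an unadjusted p under 0.05, against 3146 of 14884 genes. Phgdh (adjusted p = 0.059, limma) and Asns (log2 fold change -0.54, adjusted p = 0.0619, limma) came closest. That fit had 1 residual degree of freedom, so its calls rest on very little. Its block gave KO replicate 3 a term of its own, and Asns had the same log2 fold change without KO replicate 3 (-0.54). What a replicate number stands for is unlabelled, KO replicate 3 has no partner, and over all genes tested the deviations of same-numbered libraries correlated at 0.41 and 0.54. With only 2 WT libraries their deviations are mirror images, so the crossed pairs gave -0.41 and -0.54. These values are therefore not separate signs of pairing. KO replicate 3 correlated at -0.04 with WT replicate 1 and at 0.04 with WT replicate 2. At the depth of these libraries Chac1, Trib3 and Atf3 rest on 7 to 151 reads a library, so counting error is part of their spread.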

Other observations

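Phgdh stood apart from the other serine enzymes inside each library, a comparison chosen after the values had been seen. The ratio of Phgdh CPM to Psat1 CPM was 1.39, 1.84 and 1.44 in KO replicates 1, 2 and 3, against 0.89 and 0.68 in WT replicates 1 and 2. The ratio of Phgdh to Psph, the phosphatase of the last step of serine synthesis, was 6.31, 7.29 and 7.67 in KO, against 3.80 and 3.12 in WT. The ratio of Phgdh to Shmt2 was 2.31, 3.39 and 5.08 in KO, against 1.98 and 1.87 in WT. In each of the 3 ratios all KO values exceeded both WT values. Such ratios do not depend on how libraries are scaled, they show unequal change and not which gene changed, and they were not tested because Phgdh itself enters all of them.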
